A study of Mus musculus with 3 samples.

Results

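Regions of open chromatin that ranked among the stronger ones before injury and had no counterpart in either library taken after injury were examined in mouse mesenchymal stem cells. They were chosen from peak summits, the single base at the top of each accessible region, on chromosomes 1 to 19. Of the 51722 day 0 summits, the 30000 with the highest score were called strong, and a strong summit was a member if neither day 7 list had a summit within 500 bp. The rule took 1239 of 30000 strong summits (4.13%, the share the rule itself fixes), and these formed 1238 regions after each was widened by 250 bp on both sides and overlaps were merged. The score and the day 7 summits chose the members, so what follows from them is description.

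The study profiled chromatin accessibility by ATAC-seq, which reads out the DNA that a transposase can reach, in a setting of heterotopic ossification, where bone forms in soft tissue. It has 3 libraries, each the only one of its group: mesenchymal stem cells (MSC) before injury at day 0, MSC labelled immobilized at day 7 after injury, and MSC labelled non-immobilized at day 7. The sources used here do not give strain, genotype, age, the kind of injury, how the cells were isolated or how many animals were pooled. Since each group is 1 library, nothing below could be checked in replicates, and injury, library and batch cannot be told apart. In such bulk samples, fewer cells of a type and less open chromatin per cell cannot be told apart either.

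Mesenchymal progenitors of muscle and connective tissue are quiescent at rest and, after injury, proliferate, lay down matrix and can take bone, cartilage, fat or fibroblast fates. Accessible chromatin marks promoters, which sit at gene starts and tend to be open in many cell types, and enhancers, which lie within or between genes and differ more between cell types and states. Heterotopic bone is known to form from such mesenchymal cells through a cartilage stage.

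The lists held 51722, 67404 and 47912 summits before injury, with immobilization and without it, from an estimated 63640194, 75269683 and 90136518 aligned, non-duplicate read pairs. Day 0 had the highest duplicate share, 60.2% against 43.4% and 42.0%. A region missing from a list had no summit there past the authors' peak threshold and was not necessarily closed. Among strong day 0 summits, 11 of 13 mesenchymal marker genes had at least 1 within 50 kb of a gene end (41 summits), and Ly6a and Lepr had none. Markers of other cells were also present: 4 of 4 endothelial genes (8 summits), 4 of 4 muscle genes (10), 4 of 4 pericyte and smooth muscle genes (14), 2 of 5 leukocyte genes (2), 2 of 4 epithelial genes (2) and 1 of 3 Schwann genes (1). Of all 20661 protein-coding genes on these chromosomes, 12718 had a strong summit within 50 kb, so most genes meet this measure whatever the cell type. An accessible region near a gene does not show that the gene is transcribed, and the part of other cell types in the results was not tested.

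Members fell into 3 kinds by where the day 7 summits lay, a division made after the data were seen. In 97 members, called displaced, both day 7 lists had a summit within 2 kb whose own nearest day 0 summit was the member, so that the summits paired off across the libraries. Another 352, called flanking, had a day 7 summit within 2 kb in at least 1 list without such pairing. The other 790 (2.63% of strong summits; 63.8% of members), called isolated, had no day 7 summit within 2 kb in either list. Peak widths were not used here, so a wide region whose summit moved cannot be told from a pair of neighbouring regions.

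Few members lay at gene starts, and the sequences there are shown to let the kinds be seen side by side. RefSeq promoter windows (assembly GRCm38.p6, the assembly of mm10), from 250 bases before to 50 after a start, held 40 member summits. That was 3.38% of the 1184 members on chromosomes with listed starts, against 25.4% of all strong summits there. Of the 40, 6 were isolated, at Calhm1, Gm41877, Gm42209, 5430401H09Rik, Rgs5 and Nlgn1. The windows of the protein-coding 3 are printed in full, 5′ to 3′ in the direction of the gene, with the 21 bases around the day 0 summit in capitals.
Rgs5, chr1:169655251-169655550, plus strand: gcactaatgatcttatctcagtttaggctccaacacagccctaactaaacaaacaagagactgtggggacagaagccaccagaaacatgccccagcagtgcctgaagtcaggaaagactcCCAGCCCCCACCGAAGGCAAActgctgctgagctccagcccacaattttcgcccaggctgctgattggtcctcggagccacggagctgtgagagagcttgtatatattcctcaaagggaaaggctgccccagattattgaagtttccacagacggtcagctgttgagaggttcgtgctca
Calhm1, chr19:47144125-47144424, minus strand: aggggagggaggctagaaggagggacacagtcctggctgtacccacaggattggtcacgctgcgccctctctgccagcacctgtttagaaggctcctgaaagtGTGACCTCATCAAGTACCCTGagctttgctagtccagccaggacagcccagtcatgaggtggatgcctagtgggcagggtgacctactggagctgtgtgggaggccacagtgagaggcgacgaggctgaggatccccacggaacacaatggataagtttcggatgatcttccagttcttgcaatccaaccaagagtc
Nlgn1, chr3:26153937-26154236, minus strand: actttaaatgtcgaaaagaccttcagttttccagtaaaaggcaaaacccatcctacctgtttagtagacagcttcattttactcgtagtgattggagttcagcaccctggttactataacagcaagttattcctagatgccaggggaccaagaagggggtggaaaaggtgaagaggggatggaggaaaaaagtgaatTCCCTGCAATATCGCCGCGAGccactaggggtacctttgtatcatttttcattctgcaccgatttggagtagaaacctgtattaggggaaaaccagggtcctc
Rgs5 encodes a regulator of G protein signalling used as a pericyte marker, Calhm1 an ion channel and Nlgn1 a synaptic adhesion protein. The Rgs5 summit lay 120 bp upstream of the start with a score of 9.80. Its nearest day 7 summits were 10.1 kb away in the immobilized and 16.5 kb away in the non-immobilized library. The Calhm1 summit had a score of 17.6 and day 7 summits at 7.04 and 5.97 kb. The Nlgn1 summit had a score of 9.30 and stood far from any other, with day 7 summits at 999.95 and 900.95 kb.

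Among members the displaced kind was the most common at promoters, with 21 of 96 summits in these windows (21.9%). The share was 25.4% of all strong summits and 28.9% of those present in both day 7 lists, so displaced members showed no excess there. Of the 21, 4 are shown for contrast.
Acbd5, chr2:23067951-23068250, plus strand: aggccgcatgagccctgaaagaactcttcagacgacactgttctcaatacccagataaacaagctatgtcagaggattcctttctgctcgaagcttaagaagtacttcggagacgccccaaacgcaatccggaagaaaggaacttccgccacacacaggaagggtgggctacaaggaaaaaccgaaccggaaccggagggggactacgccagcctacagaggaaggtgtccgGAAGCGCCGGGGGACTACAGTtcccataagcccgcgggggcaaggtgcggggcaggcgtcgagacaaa
Fut8, chr12:77237854-77238153, plus strand: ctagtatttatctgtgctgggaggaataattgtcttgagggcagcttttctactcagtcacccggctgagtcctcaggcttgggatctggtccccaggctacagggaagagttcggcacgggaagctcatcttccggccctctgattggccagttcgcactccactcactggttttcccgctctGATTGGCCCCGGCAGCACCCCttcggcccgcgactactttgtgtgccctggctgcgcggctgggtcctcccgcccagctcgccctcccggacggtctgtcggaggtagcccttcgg
Smad5, chr13:56702760-56703059, plus strand: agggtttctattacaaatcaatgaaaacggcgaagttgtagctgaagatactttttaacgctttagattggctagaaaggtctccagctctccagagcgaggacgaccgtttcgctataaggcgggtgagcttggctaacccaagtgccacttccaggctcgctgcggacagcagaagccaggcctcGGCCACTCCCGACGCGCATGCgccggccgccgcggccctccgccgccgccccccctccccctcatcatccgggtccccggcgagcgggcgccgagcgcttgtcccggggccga
Pdgfa, chr5:138994895-138995194, minus strand: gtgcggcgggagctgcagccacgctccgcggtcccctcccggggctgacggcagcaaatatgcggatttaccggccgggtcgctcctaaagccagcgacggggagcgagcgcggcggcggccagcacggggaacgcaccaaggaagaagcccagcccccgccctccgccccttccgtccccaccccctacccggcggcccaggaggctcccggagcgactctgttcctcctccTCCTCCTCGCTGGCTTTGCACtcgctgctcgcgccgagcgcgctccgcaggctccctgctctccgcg
Acbd5 encodes a peroxisomal acyl-CoA binding protein, Fut8 the enzyme of core fucosylation, Smad5 a transducer of BMP signals and Pdgfa a growth factor for mesenchymal cells. In each, the day 0 summit lay within 56 bp of the start and both day 7 lists had a summit close by. The distances were 856 and 858 bp for Acbd5, 648 and 644 bp for Fut8, 739 and 712 bp for Smad5, and 1034 and 1086 bp for Pdgfa (immobilized, then non-immobilized). All 4 promoters thus had a day 7 summit within 1086 bp of the day 0 summit in both libraries.

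The median GC content was lowest in isolated windows, with overlapping ranges. The 6 isolated windows had a GC content of 44.7% to 59.3% (median 49.5%) and 1 to 7 CpG dinucleotides. Displaced windows had a median GC content of 63.0% (49.3% to 88.0%, n = 21) and a median of 24 CpG, and the 13 flanking windows had a median of 59.0% (40.3% to 84.7%) and 19 CpG. The flanking Tlr6 window, at 40.3%, lay below every isolated one. Strong summits present in both day 7 lists had a median of 62.7% and 23 CpG over 7219 windows, and those of them in the lower 2 quintiles by score 59.3% and 15 CpG over 646 windows. All 31396 promoter windows had medians of 53.0% and 7.

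On both strands 10 motifs were searched: the letters TATAAA of the TATA box, CCAAT of the CCAAT box, GGGCGG of the GC box, TGANTCA of AP-1 sites, TGACGTCA of the CRE, GGAATG of TEAD sites, CAGCTG of an E-box, TGTGGT of Runx sites and TAATTA of homeobox sites, and the CArG box. A CArG box, a pair of C, a run of A or T and a pair of G, can hold the TATA box or the homeobox letters, and no other motif contains another. The GC box stood in 1 of 6 isolated, 9 of 13 flanking and 17 of 21 displaced windows, against 54.3% of the lower-scored windows present in both day 7 lists and 36.0% of all promoters. CCAAT stood in 5 of 6 isolated windows, the Rgs5, Calhm1 and Nlgn1 windows among them, against 30.3% and 37.3%. The E-box stood in 2 of 6, against 4 of 13 flanking and 5 of 21 displaced windows, 22.4% of the lower-scored windows present in both lists and 16.3% of all promoters. No isolated window held TATA box, AP-1, CRE, TEAD, Runx, homeobox or CArG letters, which are in 13.6%, 7.84%, 1.83%, 14.6%, 16.7%, 5.27% and 1.57% of all promoters. A match is a description of letters, and 6 windows are too few to set apart from these shares.

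The label of strong regions lost after injury held poorly for the members with the highest scores, which had day 7 summits close by. The 37 highest-scored members were all displaced, and so were 43 of the top 50 and 62 of the top 100. Strong summits present in both day 7 lists lay at a median of 20 and 21 bp from their day 7 counterparts, and 79.6% of them were within 100 bp in both. In displaced members the day 7 summit lay at a median of 688 bp in the immobilized library (505 to 1928) and 694 bp in the non-immobilized library (504 to 1899). The day 7 summits of the 2 libraries were close to each other, a median of 21 bp apart and within 100 bp in 86 of 97 members, and on the same side of the day 0 summit in 93. In the other 11 the day 7 summits were over 100 bp apart, as at Sp3, where they lay 824 and 596 bp from the day 0 summit. Whether the day 0 and day 7 summits belong to 1 wide region or to neighbouring ones was not tested.

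**Figure D1:**
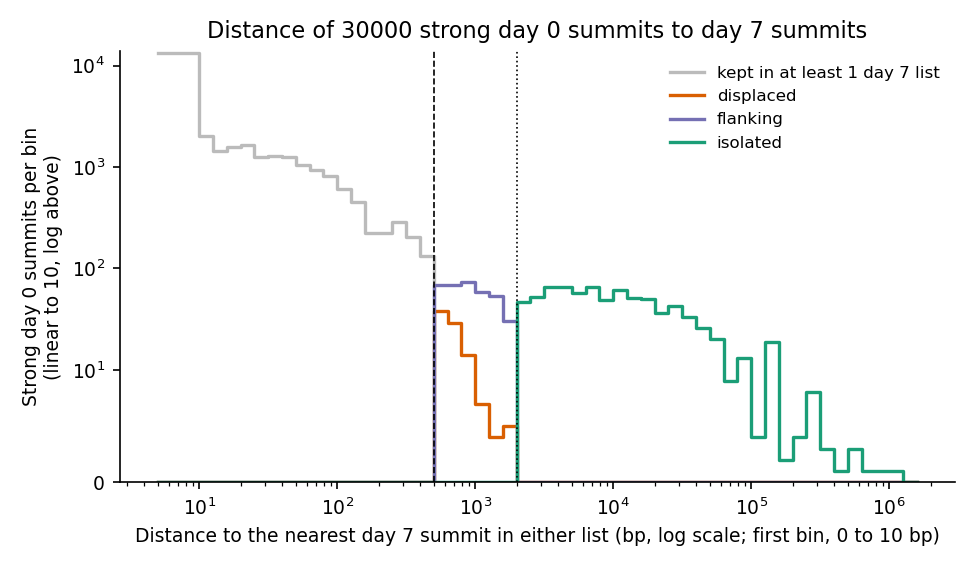
Number of strong day 0 summits (y axis, linear to 10 and log above) by distance to the nearest day 7 summit in either list (x axis, bp, log scale), for summits kept in at least 1 day 7 list and for the 3 kinds of member. Dashed and dotted lines mark 500 bp and 2 kb; displaced members crowd just past 500 bp and the 790 isolated members spread from 2 kb to beyond 1000 kb.

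The 15 members with the highest day 0 score were all displaced. Ing3, a subunit of a histone acetyltransferase complex, had the highest score, 73.0 (rank 2322), with day 7 summits 515 bp away in the immobilized and 513 bp in the non-immobilized library. Pnrc1, a nuclear receptor coregulator, followed with a score of 66.5 and day 7 summits at 683 and 684 bp. Near Pkmyt1, which encodes a kinase that restrains Cdk1, the score was 66.4 and the distances were 549 and 544 bp. Regulators of transcription and chromatin near these summits were E4f1, Gtf2i, Sp3, Kmt2c and Bptf with scores of 66.1, 59.2, 54.7, 52.1 and 51.7. Genes of RNA processing were Hnrnph1 and Hnrnpu, with scores of 55.3 and 51.8. Also among the 15 were Acbd5 (65.3), Ndrg2 (63.2), Fut8 (63.1) and Rusc1 (57.0). Across the 15 the distance to the day 7 summit ran from 515 to 1320 bp in the immobilized and from 513 to 1329 bp in the non-immobilized library, so every one had a summit nearby in both.

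Flanking members mostly sat beside a day 0 summit that was kept, which is partly built into their definition. Of the 352, 256 had a summit within 2 kb in both day 7 lists. In 242 of these another day 0 summit lay within 500 bp of the day 7 summit in both lists. Each of the 256 lacked the pairing in some list, so there another day 0 summit was nearer to the day 7 summit. The definition did not require the 500 bp limit, nor that it hold in both lists. The immobilized list alone had a summit within 2 kb for 78 flanking members and the non-immobilized list alone for 18, beside list lengths of 67404 and 47912. Examples from the early gene and inflammatory lists, whose shares of members are given with the other lists, are as follows. Atf3, a stress-induced transcription factor, had a flanking member with a score of 14.3 inside the gene, 1006 and 929 bp from day 7 summits. Egr1, an immediate early zinc finger factor, had one with a score of 19.04 at 1080 and 1081 bp, and Socs3, the feedback inhibitor of cytokine signalling, one with a score of 23.7 at 1099 and 5381 bp.

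Isolated members had no day 7 summit nearby but mostly low scores, so few of them stood out as strong. The highest had a score of 33.5 (rank 9318). Their median score was 10.8, against 26.9 for displaced members and 20.6 for all strong summits. The median distance to the nearest day 7 summit was 9.69 kb; 389 had none within 10 kb and 90 none within 50 kb, and the longest distance was 1065 kb.

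**Figure D2:**
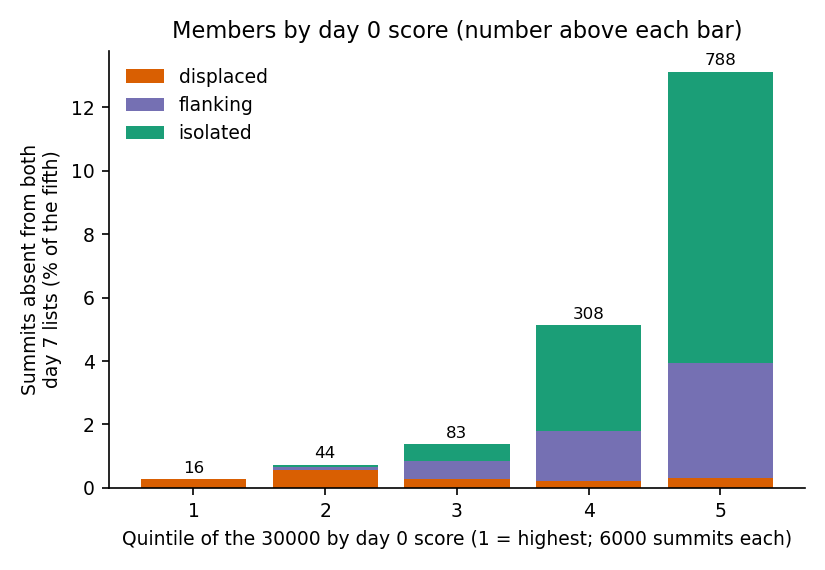
Share of strong day 0 summits that were members (y axis, %) in each quintile of the 30000 by day 0 score (x axis; 1 is the highest, 6000 summits each), split by kind, with the number of members above each bar. The bars rise from 16 members in the highest quintile to 788 in the lowest, and isolated members fill most of the last 2 bars.

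Membership rose steeply toward the lower scores. From the highest to the lowest quintile (each one in 5 summits by score), members numbered 16, 44, 83, 308 and 788 of 6000 summits each, or 0.267%, 0.733%, 1.38%, 5.13% and 13.1%. No isolated member lay in the highest quintile, and the counts below it were 4, 33, 201 and 552. The median member had a score of 10.9 and rank 25781. The 7538 of 21722 weaker day 0 summits (34.7%), those below rank 30000, that also lacked a day 7 summit within 500 bp continued the trend. These shares describe the score that chose the members.

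Many isolated members carried one of a small set of repeated scores. In the strong list 16 score values, from 9.30 to 23.7, were each shared by at least 50 summits, a number chosen after the data were seen. They covered 9.58% of strong summits and 28.5% of members, 327 of the 353 being isolated. The lowest of them, 9.30, was the score of isolated members named here at Nlgn1, Ddc, Abca8a, Sp3 and Runx3, among others. In the lowest quintile 43.8% of isolated members (95% exact binomial interval 39.7% to 48.1%) had a repeated score, against 8.72% (5.33% to 13.3%) of flanking members and 20.1% (18.8% to 21.4%) of summits present in both day 7 lists. In the fourth quintile the shares were 39.8% (33.0% to 46.9%), 2.13% (0.259% to 7.48%) and 14.97% (13.96% to 16.02%). All binomial intervals here are exact (Clopper-Pearson) and cover counting error only. What sets these values was not tested, since read counts per summit were not used here.

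The thresholds fell among near-identical values. Just inside the rank threshold were members near Laptm4a, Impa2 and Myc, with scores of 9.12, 9.11 and 9.11, and just outside it summits near Myo5a, Mrps27 and Lrch3 at 9.10 that also had no day 7 summit within 500 bp. Just inside the distance threshold were members near Mboat2, Spats2 and 2700049A03Rik, whose nearer day 7 summit was 502, 504 and 504 bp away. Just outside it were summits near Ssr3, Npepps and Cachd1 at 500, 498 and 498 bp.

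The isolated members with the highest scores lay mostly away from gene ends. They are named after their values were seen, because the rule for naming by score took displaced members alone. The first lay at chr19:41007261-41007761 (mm10), 13.3 kb from an end of Blnk, a B cell adaptor, with day 7 summits 8.63 kb away in both libraries. The second, with a score of 30.6, lay 0.119 kb from an end of Btnl6 on chromosome 17, and its day 7 summits were 48.0 and 56.6 kb away; Btnl6 belongs to a family with similar copies, where read placement is uncertain. The third, with a score of 28.6 on chromosome 10, was 933.3 kb from the nearest gene end, that of Cited2, and 152.7 kb from any day 7 summit.

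Examples from the 15 highest-scored isolated members follow. Adamts14, which encodes a procollagen protease, had one 2.31 kb away with a score of 25.8 and day 7 summits at 5.04 and 4.94 kb. Prdm6, a smooth muscle regulator, had one 20.8 kb away with a score of 21.3 and no day 7 summit within 132 kb. Smad3, the TGF-beta transducer, had one 38.6 kb away with a score of 20.5 and day 7 summits at 2.71 and 2.72 kb. A member with a score of 20.9 lay 211 kb from Ebf1, an early B cell factor, with day 7 summits at 44.2 and 44.7 kb.

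Members lay away from gene ends more often than summits present in both day 7 lists. Within 1 kb of either end of a coding gene were 143 of 1239 members (11.5%, interval 9.81% to 13.5%), against 38.7% (38.1% to 39.3%) of 25766 summits present in both lists. By kind the share was 39.2% in displaced, 22.4% in flanking and 3.29% (2.16% to 4.79%) in isolated members. A promoter that has a day 7 summit cannot hold an isolated member, so part of the last value is built into the definition. More than 50 kb from any gene end were 31.1% (28.5% to 33.7%) of members and 15.6% (15.1% to 16.0%) of summits present in both. Inside gene bodies the shares were alike, 54.1% (51.3% to 56.9%) and 53.7% (53.1% to 54.3%).

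**Figure D3:**
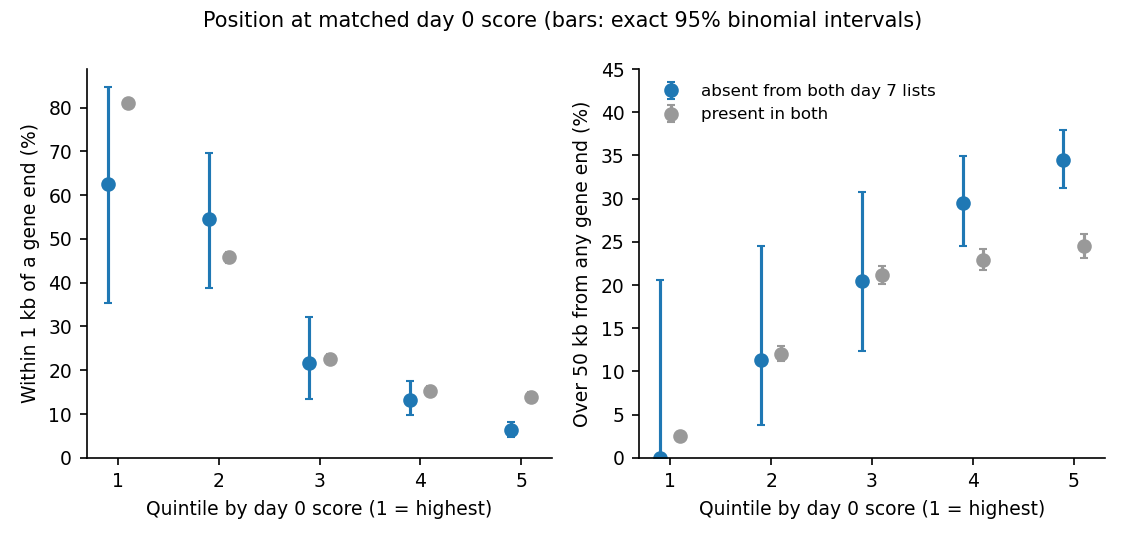
Share of summits within 1 kb of a protein-coding gene end (left y axis, %) and over 50 kb from any (right y axis, %) by quintile of day 0 score (x axis), for members and for strong summits present in both day 7 lists; bars are exact 95% binomial intervals. In the lowest quintile members were at 6.35% and 34.5%, against 13.9% and 24.5%.

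Near gene ends the difference was smaller within quintiles of score. There members against summits present in both lists had 62.5% against 81.0%, 54.5% against 45.8%, 21.7% against 22.5% and 13.3% against 15.3% near a gene end, and these intervals overlapped. In the lowest quintile the intervals lay apart, 6.35% (4.75% to 8.28%) against 13.9% (12.8% to 15.1%). More than 50 kb from a gene end the intervals lay apart in the fourth quintile, 29.5% (24.5% to 35.0%) against 22.9% (21.7% to 24.2%), and in the lowest, 34.5% (31.2% to 38.0%) against 24.5% (23.1% to 25.9%). The kinds differed within these quintiles. Near a gene end in the lowest quintile were 15.1% (10.7% to 20.6%) of flanking members, like the summits present in both, and 2.90% (1.67% to 4.66%) of isolated members. In the fourth the shares were 33.0% (23.6% to 43.4%) of flanking and 3.48% (1.41% to 7.04%) of isolated members, which average out to the 13.3% above. The low value in the lowest quintile thus came from isolated members, whose distance from promoters is partly built into their definition.

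For gene assignment each summit went to the protein-coding gene whose start or end was closest, up to 50 kb away, which reached 854 of the members out of 24727 strong summits assigned (3.45%) and 486 isolated members (1.97%). Strong summits were assigned to 12718 genes, and 804 genes had a member. Of these 687 also had a strong summit that was kept in at least 1 day 7 list. There were 47 genes with 2 or more members and 3 genes with 3. The same counts were not made for other strong summits, so they do not show whether members were scattered or gathered.

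The 3 genes with 3 members were Notum, Ddc and Clmn. Notum encodes a secreted enzyme that inactivates Wnt proteins by removing their lipid, and 3 of its 4 strong summits were members. The isolated pair outside the gene, 4.40 and 5.56 kb from its nearer end, had scores of 21.3 and 10.6, with day 7 summits at 4.79 and 4.73 kb from the first. The other Notum member, flanking, had a score of 9.21 and lay inside the gene with day 7 summits at 1758 and 1078 bp. Counting all summits of any score, 5 were assigned to Notum at day 0, 1 in the immobilized and 2 in the non-immobilized list.

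Clmn, which encodes the membrane protein calmin, had 3 isolated members among 10 strong summits, all inside the gene. Their scores were 13.2, 10.8 and 9.83, and their day 7 summits were 3.32 to 9.72 kb away in the immobilized and 3.22 to 7.42 kb in the non-immobilized library. The 7 other strong summits at Clmn were kept in at least 1 day 7 list. Ddc, the decarboxylase of dopamine and serotonin synthesis, had 3 of 8, with scores of 13.4, 11.7 and 9.30, of which the first 2 were flanking.

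At 4 genes with 2 or more strong summits every one was a member: Ddx31, Abca8a, Gm4868 and Stmn4. Abca8a, a lipid transporter of the ABC family, had both of its strong summits among the isolated members, with scores of 13.2 and 9.30, and both lie inside the gene. The first was 65.7 kb from an immobilized and 35.7 kb from a non-immobilized summit, and the second 31.8 and 31.9 kb. The score of the second, 9.30, was the lowest of the repeated scores. Of any score, 5 summits were assigned to Abca8a at day 0 and 1 in each day 7 list. Stmn4, a microtubule regulator of the stathmin family, had 4 summits of any score at day 0 and none assigned to it in either day 7 list; its members had scores of 11.2 and 9.67 and day 7 summits no closer than 6.92 kb. Gm4868, a predicted gene, had 2 at day 0 and none at day 7, with day 7 summits at least 289.7 kb away. Ddx31, a helicase of ribosome biogenesis, had 2 at day 0 and 1 in each day 7 list, and its members scored 18.9 and 11.6.

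Other genes with 2 members kept further strong summits. Ednrb, the endothelin B receptor, had 2 of 3, an isolated member with a score of 18.6 and a flanking one with 9.62. Ercc6, of transcription-coupled repair, had 2 of 3. Pemt, which makes phosphatidylcholine in the liver, had 2 of 3, both isolated. Adamts7, a matrix protease, had 2 of 4, both isolated, and Asap2, a regulator of Arf GTPases, also 2 of 4. Prickle2, of planar cell polarity, had 2 of 4. Nat8f4 had 2 of 3, but lies in a cluster of similar genes where read placement is uncertain. Sp3 had 2 of 4, a displaced member 528 bp from its start and an isolated one with a score of 9.30.

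Groups of members were counted next. Of the 1239 members, 44 had another member within 10 kb, 157 within 50 kb and 251 within 100 kb. The same count was not made for equally many other strong summits, so these numbers do not show whether members cluster. The densest groups held 3 members within 100 kb, and there were 17 such sets. The shortest spanned 7.71 kb at Notum, 10.3 kb between Morf4l1 and Adamts7, 28.7 kb at Clmn, 30.0 kb at Syngr2 and Tmc8 and 31.8 kb at Zfp521, a regulator of mesenchymal lineage choice. At Morf4l1 and Adamts7 all 3 strong summits in the span were isolated members, and at Zfp521 3 of 4 were. The one merged region with 2 members lay in the Tmc8 group at chr11:117779438-117780360, 923 bp long, and all others were 501 bp.

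Among 23 gene lists, the markers of resting fibroblast progenitors had the highest share of members. Of 73 strong summits at 15 of its genes, 7 were members (9.59%, interval 3.94% to 18.8%), against 3.45% over all genes. This list was drawn up with earlier results on some of its genes known, so its share is no independent evidence. It was also the one list of 23 whose interval lay above 3.45%, and that call did not hold once 1 gene, Abca8a, was left out. Cd34, which also had 2 members, was not left out in turn. Without Abca8a the share was 5 of 71 (7.04%, 2.33% to 15.7%), and by the gene whose body holds the summit 4 of 44 (9.09%, 2.53% to 21.7%); both intervals include 3.45%. The 7 members were 2 at Abca8a, 2 at Cd34, and 1 each at Abca8b, Fbln1 and Clec3b; Abca8b fell outside the rule for named genes and was named after its value was seen. Of these 5 were isolated (6.85%, against 1.97% over all genes), and none of the 28 strong summits of the list within the 20000 strongest was a member. Only these 28 of the 73 ranked that high, and lower-scored summits were members more often. Over all strong summits the share was 0.99% of the 20000 strongest and 4.13% of the 30000. The list was not compared with other summits of like score, so its high share may partly reflect its low scores.

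Most genes of this list kept their other strong summits. Cd34, a surface sialomucin of progenitor cells, had 2 of 7 as members: an isolated one with a score of 12.0, 2.50 and 2.51 kb from day 7 summits, and a flanking one with 10.3, 757 and 761 bp from them. Fbln1, a matrix glycoprotein, had 1 of 5, an isolated member inside the gene with a score of 11.8 and day 7 summits at 9.67 and 11.1 kb. Clec3b, which encodes tetranectin, had 1 of 3, a flanking member with a score of 10.1 at 1424 and 4573 bp. Abca8b, next to Abca8a on chromosome 11, had 1 of 9 with a score of 9.65 and day 7 summits at 4.76 and 4.66 kb. Of all 73 strong summits of the list 54 were present in both day 7 lists (74.0%), against 85.9% of the 30000. Pericyte and smooth muscle genes were lower, at 70.7%, and Schwann cell and matrix genes were at 77.8% and 78.4%. The 30000 include 5273 summits over 50 kb from any gene end, which no list can hold. Presence in both lists also fell from 98.9% in the highest quintile of score to 61.25% in the lowest, and these shares were not matched on score.

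**Figure D4:**
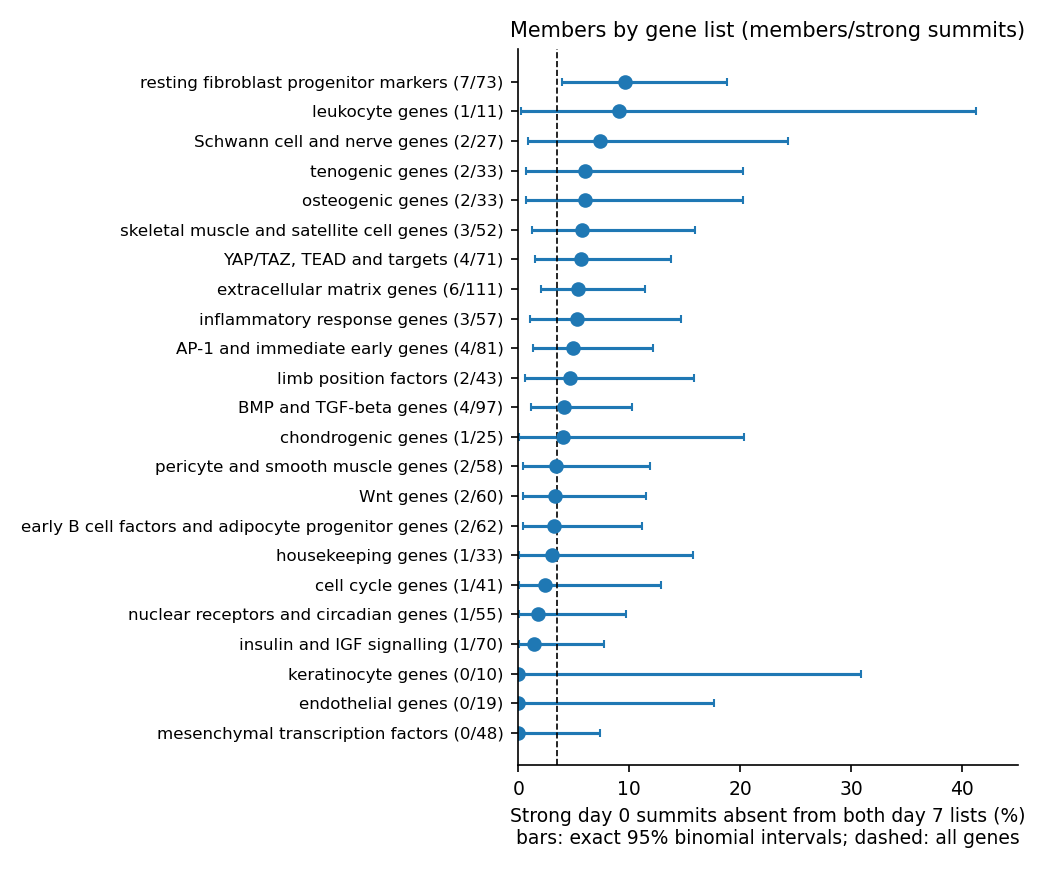
Share of strong day 0 summits that were members (x axis, %) for each of 23 gene lists (y axis; members and strong summits in parentheses), with exact 95% binomial intervals; the dashed line is the 3.45% over all genes. Only the resting fibroblast progenitor list, at 9.59%, has an interval above the line, and without Abca8a its interval, 2.33% to 15.7%, crosses it.

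Lists of bone, cartilage and tendon genes stayed near the share over all genes, within wide intervals. Osteogenic genes had 2 of 33 (6.06%), none of them isolated, among them a displaced member 20.4 kb from Col1a1, the collagen I chain, with a score of 9.26. Chondrogenic genes had 1 of 25, an isolated member 28.0 kb from Cnmd, the cartilage factor chondromodulin, with a score of 13.3. Tenogenic genes had 2 of 33, flanking members at Egr1 and Col5a1. Mesenchymal transcription factors had 0 of 48 (upper bound 7.40%).

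Signalling lists behaved likewise. BMP and TGF-beta genes had 4 of 97 (4.12%), at Smad3, Tgfbr3, Bmp7 and Smad7, of which those at Smad3 and Bmp7 were isolated. The Bmp7 member lay inside the gene of this bone morphogenetic protein, with a score of 10.2 and day 7 summits 28.8 kb away in both libraries. Wnt genes had 2 of 60, both at the co-receptor gene Lrp5. Insulin and IGF genes had 1 of 70 (1.43%), a flanking member inside Igf1 with a score of 9.41. YAP/TAZ, TEAD and target genes had 4 of 71, of which 2 lay at Amotl1, an inhibitor of YAP, and 1 each at Ajuba and Vgll4. Extracellular matrix genes had 6 of 111 (5.41%), among them Col6a3, Col6a1, Col4a1 and Lama4, and 2 of the 6 were isolated.

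Early genes, inflammation and other lists gave small counts. AP-1 and immediate early genes had 4 of 81 (4.94%): Egr1, Atf3 and Fos were flanking, and Jun, the AP-1 subunit, had an isolated member inside the gene with a score of 13.7 and day 7 summits at 3168 and 2243 bp. Inflammatory response genes had 3 of 57, all flanking, at Socs3, Nfkb1 and Il1b. Early B cell factor and adipocyte progenitor genes had 2 of 62, isolated members near Cebpd (score 17.1) and Ebf4 (9.72). Limb position factors had 2 of 43, at Tbx5 and Meis2. Nuclear receptor and circadian genes had 1 of 55, at Nr1d1; cell cycle genes 1 of 41, at Cdk1; housekeeping genes 1 of 33, the displaced member of Ywhaz with a score of 49.0.

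Lists of muscle, vessel, blood, nerve and skin cells had from 10 to 58 strong summits each, and their intervals include 3.45%. Skeletal muscle genes had 3 of 52 (5.77%): isolated members at Acta1, the skeletal actin, with a score of 11.9 and at Myog, a muscle regulator, with 11.2, and a flanking one at Tnnt3, a fast troponin. Pericyte and smooth muscle genes had 2 of 58 (3.45%), isolated members at Rgs5 and Abcc9, a potassium channel subunit of pericytes. Leukocyte genes had 1 of 11 (9.09%, 0.230% to 41.3%), an isolated member 11.9 kb from Runx3 with a score of 9.30, at a gene that had 1 summit of any score at day 0, 9 in the immobilized and 3 in the non-immobilized list. Schwann cell genes had 2 of 27 (7.41%), at Erbb3 and Mbp. Endothelial genes had 0 of 19 (upper bound 17.6%) and keratinocyte genes 0 of 10 (upper bound 30.9%).

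Of 18 genes followed whatever their values, 16 had strong summits, 56 in all, and 1 of the 56 was a member, the Rgs5 promoter. Runx2 and Pi16 had none. Of the 56, 43 were present in both day 7 lists, 11 in the immobilized list alone and 1 in the non-immobilized list alone. Over all strong summits, near a gene or not, these classes held 85.9%, 7.76% and 2.23%. Members were 3.45% of the strong summits assigned to any gene. The 56 were not matched on score and no interval was computed for them, so whether these genes differ from others was not tested. No strong summit of Ebf2, Dlk1, Irs2, Pax7, Myod1, Pdgfra, Prrx1, Sox9, Pparg, Scx, Myh11, Acta2, Tppp3, Dpt or Meox1 was a member. At Rgs5 8 summits of any score were assigned at day 0, 3 in the immobilized and 2 in the non-immobilized list. For Ebf2, an early B cell factor of adipogenic progenitors, the counts were 16, 8 and 4, so fewer summits of any score at day 7 did occur at a gene without members.

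Weaker day 0 summits around the members were measured next, since the rule did not use them. Of 458 weaker summits whose nearest strong summit was an isolated member 3 to 50 kb away, 193 (42.1%, interval 37.6% to 46.8%) had no summit within 500 bp in either day 7 list, against 34.7% of all weaker summits. Around strong summits of the lower 2 quintiles that were present in both day 7 lists the share was 33.9% (32.5% to 35.4%, 1440 of 4246), and around those of the upper 3 quintiles 32.2% (31.1% to 33.3%). The median score of the weaker summits was alike, 5.84, 5.66 and 5.84.

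**Figure D5:**
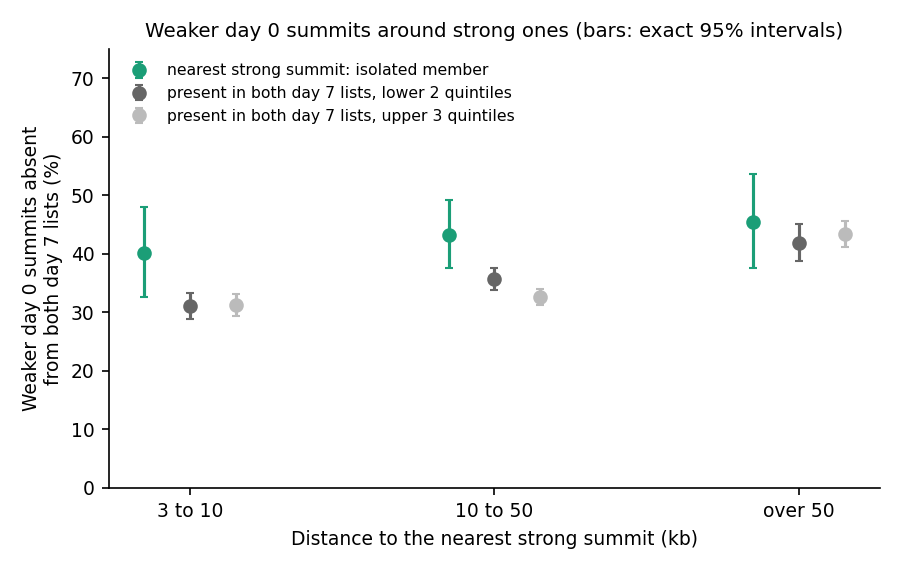
Share of weaker day 0 summits without a day 7 summit within 500 bp (y axis, %) by distance to the nearest strong summit (x axis, kb), where that strong summit was an isolated member or was present in both day 7 lists; bars are exact 95% binomial intervals. Neighbours of isolated members have the highest share in each distance range. Their intervals overlap those around summits of the lower 2 quintiles present in both lists in each range. Beyond 50 kb the share is 45.5% around isolated members, and 41.9% and 43.4% around summits of the lower 2 and upper 3 quintiles present in both.

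Split by distance, the shares from 3 to 10 kb were 40.1% (32.6% to 48.0%) around isolated members and 31.1% (28.8% to 33.3%) around the lower-scored summits present in both lists. From 10 to 50 kb they were 43.3% (37.5% to 49.2%) and 35.8% (33.9% to 37.6%), and beyond 50 kb 45.5% (37.5% to 53.7%) and 41.9% (38.8% to 45.1%). The intervals lay apart over 3 to 50 kb as a whole and overlapped in each of the 3 distance ranges. Both readings come from the same 3 summit lists, and neighbouring summits share the library and the local density of day 7 summits, whose part was not tested.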

How the data were processed

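ATAC-seq summit lists of 3 mouse MSC libraries, grouped by their labels, were analysed. The authors made Omni-ATAC libraries, per the labels' protocols. Peak calling with MACS2 2.1.2, alignment with Bowtie2 2.3.4.1 and build mm10 are named in the submitters' processing notes, with SAMtools 1.2, Picard and bedtools; peak cutoff, read filters and read shift are not given there. The deposited lists hold separate peaks per library. Each deposited score is the authors' own −log10 of a p or q value, which of them is not stated; it was used only within a list. The deposited run statistics give reads as a count, duplicates as a fraction and alignment as a percent; non-duplicate pairs were estimated from their product, an upper estimate that bounds how finely peaks could be called.

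Nearest distances, kinds, merging and binomial intervals were computed with scipy 1.17.1, pandas 2.3.3 and numpy 2.4.6 in Python 3.11.15 (figures with matplotlib 3.10.9), and tested on simulated data. The gene table (GRCm38.p6) gives no strand and the promoter table covers 79.6% of 20661 protein-coding genes, with no start on chromosome 18, so the nearest of either gene end was used. Genomic motifs were not searched. Members and lists were chosen with earlier results of these data known. Named were the 15 highest-scored members, the 15 genes with most members, up to 4 per list, 18 fixed genes, summits at the thresholds, the longest regions and the densest groups; isolated members by score, isolated promoters and genes whose strong summits were all members were named after their values were seen. Some members that the rule names are not reported here. Alternatives were other numbers of strong summits, distances, widths, lists and assignments.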

Additional observations from a re-analysis of the deposited data

How the results depend on the processing

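The share of members depended on each setting that defines it. It was 0.43% of the 10000 and 0.99% of the 20000 strongest day 0 summits and 17.0% of the whole day 0 list, against 4.13%. It was 6.23% at 250 bp, 3.16% at 1000 bp and 2.63% at 2000 bp, 6.47% with the day 7 lists shortened to the length of the shorter, 6.36% against the immobilized list alone, 11.9% against the non-immobilized list alone, and 3.81% without displaced members. Merging at other widths gave 1239 and 1235 regions. The share near a gene end was 5.08% within 500 bp, 15.3% within 2 kb and 3.29% in isolated members; by quintile of score it was 62.5%, 54.5%, 21.7%, 13.3% and 6.35%, and it was 11.7% by RefSeq starts.

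Of 184 alternatives over the 23 lists, 57 left the interval of the reported share, and all but 4 of these were at 0%. The exceptions were AP-1 genes (1.23%) and matrix genes (1.80%) among isolated members, and YAP/TAZ genes at 1000 bp and among isolated members (1.41% each). Every list with a member has an interval above 0%, so a subset without members left it however few summits it held. For resting fibroblast progenitor markers the share was 0% among the 10000 and 20000 strongest summits, of which the list held 5 and 28. Leaving out displaced members, isolated members alone and RefSeq starts were chosen after seeing the data. Motif alternatives in the genome were not run, as no genome was used here. No paired analysis was possible because each group has 1 library. Without replicates or read counts per summit, a summit just under the peak threshold cannot be told from a closed region.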

Other observations

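Members were spread over all 19 autosomes. On chromosome 12, 74 of 1237 strong summits were members (5.98%, interval 4.73% to 7.45%), and on chromosome 18, 55 of 959 (5.74%, 4.35% to 7.40%); both intervals lay above the 4.13% of all strong summits. On chromosome 8 the share was 3.08%, with an upper bound of 4.07%. With 19 chromosomes examined, some intervals can miss the pooled share by counting error.

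The same rule turned round gave 1857 members (6.19%) among the 30000 strongest summits of the immobilized list and 741 (2.47%) among those of the non-immobilized list, each set against the other lists. Isolated members were 1486 and 294, and displaced ones 69 and 73, beside 790 and 97 for day 0. The lists differ in length and depth, so these numbers are not a measure of gain against loss. Hairpins of 4 miRNAs, Mir7214, Mir7685, Mir2861 and Mir3960, lay within 1 kb of a member; the last pair share 1 summit, and all of these members were flanking.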
